A study of Mus musculus with 4 samples.

Results

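Cpa1, Ctrb1, Pnlip, Pnliprp1, and Pnliprp2 are genes of the exocrine pancreas whose transcripts were counted in single cells of mouse gonads and of testicular somatic cells made from embryonic stem cells (ESCs). They are 5 of the 31053 gene identifiers in the count tables, and all 5 were found by symbol. The genes were chosen by measured values of these same libraries, because exocrine pancreas genes had led small clusters of gonadal cells at E11.5 and E12.5 and of ESC-derived cells at D6. Their presence in these cells is therefore a description and is supported by no test.

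The data are 4 XY libraries of single-cell RNA sequencing, 1 for each condition. The in vivo libraries came from gonads of ICR embryos at E10.5, E11.5, and E12.5, with no transgene or treatment named. The tissue in E10.5 gonads included the dorsal mesenchyme around the gonads, and the mesonephros was removed in E11.5 and E12.5 gonads. The D6 library came from aggregates of 1 XY ESC line, N271S9C, cultured with the Wnt inhibitor IWR1 from D4. This line carries Nr5a1-hCD271, a cell surface reporter driven by Nr5a1 regulatory sequences, and Sox9-2A-CGFP, a reporter at the Sox9 gene. Its strain is C57BL/6J in the labels, whereas the methods describe ESCs from a cross of this strain with 129X1/SvJ. The D6 cells were enriched for the hCD271 reporter by magnetic sorting, so that the share of Nr5a1-positive cells in that library was set in part by the sort.

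Acinar cells of the pancreas make digestive enzymes, store them in granules, and release them into the gut. Cpa1 is a carboxypeptidase that removes amino acids from the end of dietary proteins, and Ctrb1 is chymotrypsinogen, the precursor of a serine protease. Pnlip is pancreatic triglyceride lipase, and Pnliprp1 and Pnliprp2 are its relatives, of which Pnliprp2 also acts on other lipids. In the developing pancreas, acinar enzyme genes depend on the PTF1 complex, in which the basic helix-loop-helix factor Ptf1a acts with an RBPJ protein, together with the nuclear receptor Nr5a2. Nr5a1, a close relative of Nr5a2, is a central regulator of gonadal and adrenal somatic cells. Sox9 and Amh mark Sertoli cells in the XY gonad. The study cites a report of Sox9 in supporting-like lineage cells of both male and female gonads as well. Epcam marks epithelial cells and, in the gonad, germ cells.

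On the mouse build GRCm38, Cpa1 (ENSMUSG00000054446) lies at chr6:30639218-30645363 on the plus strand. Ctrb1 (ENSMUSG00000031957) lies at chr8:111686519-111691010 on the minus strand and overlaps the annotated microRNA Mir7076 on the same strand. Pnlip (ENSMUSG00000046008) at chr19:58652498-58681788, Pnliprp1 (ENSMUSG00000042179) at chr19:58728887-58744169, and Pnliprp2 (ENSMUSG00000025091) at chr19:58759719-58777534 follow each other on the plus strand. The gaps between these lipase genes were 47098 and 15549 bases and held no other protein-coding gene. No gene other than Mir7076 was annotated across any of the 5.

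The promoters of the 5 genes are shown because each gene had a higher level at E11.5 and E12.5 than at E10.5. Each RefSeq window on GRCm38.p6 covers 250 bases before and 50 bases from the start of the transcript, 5′ to 3′ along the gene, and all 5 genes had one. The RefSeq start of Pnlip lies inside the longer GENCODE gene given above. The capitals mark matches on either strand to AAGGNCA, a core site of NR5A receptors, to CAGNTG, an E-box bound by basic helix-loop-helix factors, to TTCCCA, the core of RBPJ sites, to AGATAA for GATA factors, and to TATAAA for the TATA box. In Ctrb1 and Pnlip, neighboring matches touch or overlap and form 1 run of capitals.
Cpa1, chr6:30638968-30639267, plus strand: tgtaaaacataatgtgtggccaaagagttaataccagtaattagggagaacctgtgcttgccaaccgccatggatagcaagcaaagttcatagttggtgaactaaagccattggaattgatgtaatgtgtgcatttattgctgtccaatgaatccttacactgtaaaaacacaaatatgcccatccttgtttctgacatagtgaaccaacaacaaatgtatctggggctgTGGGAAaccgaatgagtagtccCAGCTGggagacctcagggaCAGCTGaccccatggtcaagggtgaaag
Ctrb1, chr8:111690961-111691260, minus strand: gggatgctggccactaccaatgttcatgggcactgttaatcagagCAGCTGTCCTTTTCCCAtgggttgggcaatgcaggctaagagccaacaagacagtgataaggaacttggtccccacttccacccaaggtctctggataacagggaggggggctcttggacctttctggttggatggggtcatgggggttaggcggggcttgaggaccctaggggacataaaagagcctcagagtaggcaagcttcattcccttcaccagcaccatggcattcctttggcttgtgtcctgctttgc
Pnlip, chr19:58670115-58670414, plus strand: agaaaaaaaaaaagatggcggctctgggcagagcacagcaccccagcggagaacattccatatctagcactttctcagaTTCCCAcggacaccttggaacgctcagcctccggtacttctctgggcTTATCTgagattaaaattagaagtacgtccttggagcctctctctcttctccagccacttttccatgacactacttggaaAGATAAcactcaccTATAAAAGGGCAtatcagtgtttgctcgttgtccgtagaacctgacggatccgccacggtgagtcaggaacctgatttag
Pnliprp1, chr19:58728637-58728936, plus strand: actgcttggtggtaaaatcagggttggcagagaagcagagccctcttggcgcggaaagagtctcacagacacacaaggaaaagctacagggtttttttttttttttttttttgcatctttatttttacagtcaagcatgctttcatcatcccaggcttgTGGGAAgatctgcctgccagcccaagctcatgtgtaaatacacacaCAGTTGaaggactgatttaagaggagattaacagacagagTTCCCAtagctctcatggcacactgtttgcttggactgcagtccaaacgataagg
Pnliprp2, chr19:58759473-58759772, plus strand: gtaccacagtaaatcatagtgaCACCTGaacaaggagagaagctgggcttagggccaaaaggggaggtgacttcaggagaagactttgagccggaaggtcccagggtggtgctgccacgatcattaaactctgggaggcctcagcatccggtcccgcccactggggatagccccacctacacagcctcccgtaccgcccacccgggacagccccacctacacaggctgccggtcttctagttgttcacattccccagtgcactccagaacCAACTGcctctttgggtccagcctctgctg

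The E-box was found in 4 of the 5 windows and in 51.4% of all 32851 promoter windows, and the RBPJ core was found in 4 of the 5 and in 25.6% of all windows. The window of Ctrb1 held both within a run that also matched the NR5A core site. The NR5A core site was in the windows of Ctrb1 and Pnlip and in 20.3% of all windows, the GATA motif in that of Pnlip and in 11.2%, and the TATA box in that of Pnlip and in 13.6%. These matches describe letters and say nothing of binding.

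After the limits on detected genes and mitochondrial transcripts given in the study's methods, 3837 cells remained in E10.5 gonads, 2101 in E11.5 gonads, 2764 in E12.5 gonads, and 2285 in D6 cells. A unique molecular identifier (UMI) counts 1 transcript molecule, and the median per cell was 8167, 11926, 10946, and 4607 UMIs, respectively. The D6 library differs from the in vivo ones in kit (10x v3 in place of v2), strain, origin, and sorting at once, and these cannot be told apart. Since each condition has a single library, conditions cannot be tested against each other, and each interval below is an exact 95% interval for counting error. UMIs of these genes came in clumps within cells, as described below. The intervals of UMI sums, of their ratios, and of shares of UMIs are therefore narrower than the spread between samples or cells. A protocol text in the labels speaks of female gonads whereas the titles say XY, and at least 1 of 4 Y-linked genes was detected in 55.7% to 80.5% of cells of each library. All 9 Sertoli markers listed had 20 or more UMIs at E11.5, E12.5, and D6, and 4 of the 9 did at E10.5. The 5 germ cell, 5 erythroid, and 5 macrophage markers listed all passed this limit at E11.5 and E12.5 too. With Sox9 and Amh not counted, 13260, 13255, 13723, and 12665 of the 31053 genes passed it at E10.5, E11.5, E12.5, and D6. These counts therefore do not identify a cell type.

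All 5 enzyme genes were detected at E11.5, E12.5, and D6. Their summed level, in counts per 1000000 UMIs of all genes (CPM), was 3.48 (2.86 to 4.18) in E10.5 gonads, 231.4 (225.5 to 237.5) in E11.5 gonads, 133.8 (130.0 to 137.8) in E12.5 gonads, and 32.4 (29.3 to 35.8) in D6 cells. These levels rested on 113, 5699, 4574, and 386 UMIs. The E11.5 library held the highest level and the E10.5 library the lowest. No cluster of E10.5 cells entered the choice of the genes, so the low place of that library is partly built into the choice. No 2 of the 4 intervals overlapped, but they cover counting error only and do not test this order. Nr5a1 was found in 1.88% of cells in E10.5 gonads, 34.7% in E11.5 gonads, 31.9% in E12.5 gonads, and 29.1% of D6 cells. The part of such differences in cell make-up was not tested.

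Cpa1 was the most abundant of the 5 at every stage. It gave 2.65 CPM in E10.5 gonads, 103.2 in E11.5 gonads, 65.8 in E12.5 gonads, and 11.2 in D6 cells, and in D6 cells its interval (9.35 to 13.2) overlapped that of Pnliprp2. Ctrb1 was the one gene with a higher level at E12.5 than at E11.5, with 12.6 at E11.5 (11.2 to 14.1), 16.7 at E12.5 (15.3 to 18.1), and 0.840 at D6. At E10.5 no UMI of Ctrb1 was found in 3837 cells, and 3 counts, the limit used for a count of 0, would be 0.0782% of cells, beside an exact upper limit of 0.0961%.

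The lipase genes followed the order of the sum. Pnlip gave 0.123, 46.4, 19.2, and 7.81 CPM at E10.5, E11.5, E12.5, and D6, respectively. Pnliprp1 gave 0.338, 16.5, 5.88, and 1.76, and Pnliprp2 gave 0.369, 52.7, 26.3, and 10.8. Thus Pnliprp1 was the lowest of the lipases from E11.5 on, and Pnliprp2 was the highest of them at E11.5, E12.5, and D6. At E10.5 the intervals of the 3 lipase genes overlapped. At D6 those of Pnlip (6.30 to 9.57) and Pnliprp2 (9.05 to 12.9) also overlapped. These values compare 3′-end counts, which do not scale with gene length.

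**Figure D1:**
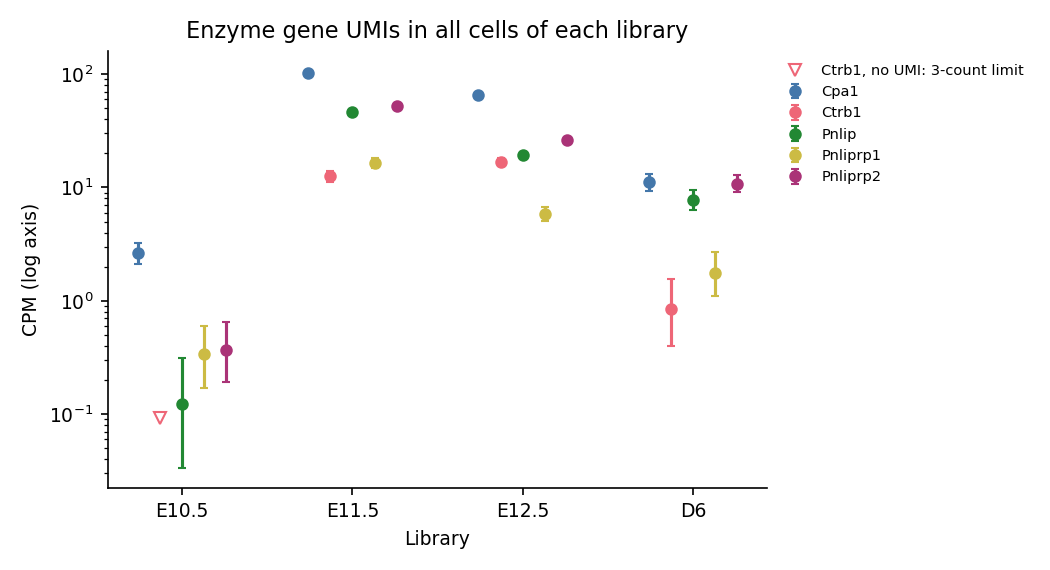
CPM (log axis) of each enzyme gene over all cells of each library. Points are library values, and bars are exact 95% Poisson intervals for counting error. The open triangle is the limit of 3 counts for Ctrb1 at E10.5, where no UMI was found. For each gene with UMIs at E10.5, that library lies below the other 3.

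The UMIs of these genes were held by a minority of cells, and some of those cells held many. At least 1 UMI of a member was found in 91 cells (2.37%) at E10.5, 821 cells (39.1%) at E11.5, 1126 cells (40.7%) at E12.5, and 174 cells (7.61%) at D6. At E11.5 and E12.5, 1 cell held up to 75 and 76 UMIs of Cpa1, 80 and 33 of Ctrb1, 21 and 14 of Pnlip, 20 and 7 of Pnliprp1, and 40 and 33 of Pnliprp2. At D6 the highest numbers were 22 of Cpa1, 6 of Ctrb1, 5 of Pnlip, 3 of Pnliprp1, and 15 of Pnliprp2. At E10.5 no cell held more than 6 UMIs of 1 of these genes.

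Free RNA from lysed cells adds UMIs to droplets, and these were assumed to follow the total UMIs of each cell. The number of cells with a UMI was therefore set beside the number calculated if the UMIs of a gene were spread over all cells in proportion to depth. At E11.5, 385 cells held a UMI of Cpa1, where the spread gave 1327, and 122 cells held 5 or more, where it gave 43.8. At E12.5, 518 cells held a UMI of Cpa1 against 1473, and 115 held 5 or more against 10.49. The UMIs of Cpa1 lay in fewer cells, and in higher numbers per cell, than the spread gives. Because the genes were chosen as leading genes of small clusters of these cells, their concentration in few cells is part of what the choice used, and these comparisons describe it without testing it.

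Ctrb1 was concentrated still more. It was found in 58 cells at E11.5, where the spread gave 282, and in 156 cells at E12.5, where it gave 506. A total of 12 cells at E11.5 and 39 at E12.5 held 5 or more UMIs of Ctrb1, and the spread gave 0.00531 and 0.0252 cells. Pnliprp2 was in 286 and 313 cells against 902 and 750, and Pnlip, the most evenly distributed at E11.5, was in 421 and 428 cells against 827 and 573. Pnliprp1 was in 155 and 133 cells, where the spread gave 360 and 193.

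At D6 the same comparison gave 52 cells with Cpa1 against 129, 4 with Ctrb1 against 9.97, 73 with Pnlip against 90.8, 15 with Pnliprp1 against 20.9, and 52 with Pnliprp2 against 125. At E10.5 the numbers lay closer to the spread, with 68 cells of Cpa1 against 84.9, 4 of Pnlip against 3.998, 10 of Pnliprp1 against 10.98, and 11 of Pnliprp2 against 12.0. With so few UMIs at E10.5, this comparison can show little for the lipase genes.

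**Figure D2:**
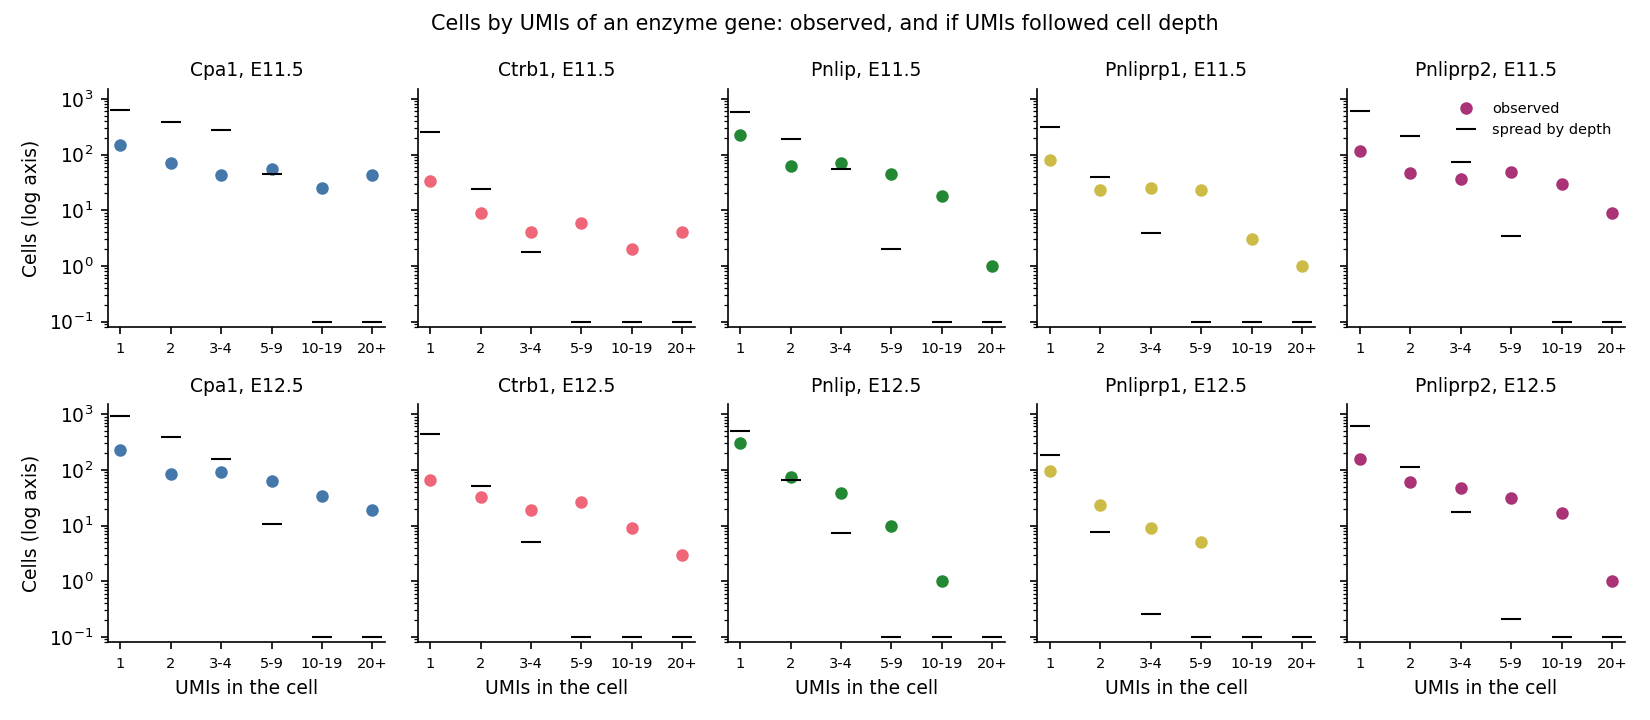
Number of cells (log axis) by the UMIs of each enzyme gene in the cell at E11.5 (top) and E12.5 (bottom). Points are observed cells, bins with no cell have no point, and dashes are the cells calculated if UMIs followed depth, with values under 0.1 drawn at 0.1. Observed cells lie below the dashes at 1 UMI and above them at 5 UMIs or more.

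Globin RNA outside red blood cells was read in the same way. Hbb-y, an embryonic globin gene, gave 70.2 CPM at E11.5 and 43.0 at E12.5 in cells with fewer than 3 of 5 erythroid markers. These levels lie within the range of the members, and here the cells with a UMI numbered 1094 where the spread gave 1063 at E11.5, and 1109 where it gave 1097 at E12.5. The ratio of observed to calculated cells of Hbb-y was 1.03 and 1.01, whereas in the same cells the members had ratios of 0.206 (Ctrb1) to 0.511 (Pnlip) at E11.5 and 0.307 (Ctrb1) to 0.747 (Pnlip) at E12.5. At E10.5 Hbb-y was in 954 cells, where the spread gave 1098, a ratio of 0.869 with 100 UMIs in 1 cell, beside 0.801 for Cpa1. Hbb-y was not detected at D6, so that this library has no such reference. Hbb-y is itself 1 of the 5 erythroid markers, so that cells rich in it were mostly left out beforehand. No such step was made for the members. Over all cells at E11.5, Hbb-y was in 1125 cells, where the spread gave 2100. The contrast with the members is therefore set in part by the choice of cells.

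Cells grouped by markers differed widely in the summed level of the 5 genes. Cells were placed in a group by a minimum number of detected markers, and cells that met several minimums were kept apart. At E11.5 the level was 387 CPM (369.2 to 405.4) in 351 Sertoli-like cells, 110.5 (102.9 to 118.5) in 556 interstitial-like cells, 28.3 (17.5 to 43.3) in 64 coelomic epithelium-like cells, 12.7 (8.97 to 17.6) in 186 germ-like cells, and 11.01 (4.75 to 21.7) in 42 endothelial-like cells. At E12.5 the levels were 312.9, 124.7, 44.5, 1.07, and 11.2, in the same order. Sertoli-like cells were thus at the top of the named groups and germ-like and endothelial-like cells at the bottom in both libraries.

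In those groups, which leave out the erythroid-like cells where Hbb-y is highest, Hbb-y varied far less. It ranged from 45.4 to 72.9 CPM over the same 5 groups at E11.5 and from 38.2 to 45.6 at E12.5. Germ-like cells are the deepest of these groups at E12.5, with a median of 18581 UMIs, and 231 of 441 held a UMI of Hbb-y, but only 9 held a UMI of any of the 5 genes and none held more than 1. At E11.5, 15 of 186 germ-like cells held a member, and 1 of them held 13 UMIs. With the cells that also met another minimum, 190 cells with at least 3 germ cell markers held 76 UMIs, or 25.6 CPM. The share of germ-like cells with a member at E12.5 was 2.04%, beside 66.4% of Sertoli-like cells with a median depth of 10610 UMIs. It was 10.0% in endothelial-like cells at E12.5. At E11.5 the share was 8.06% in germ-like cells and 61.8% in Sertoli-like cells. Whether the share in germ-like cells measures free RNA was not tested.

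Erythroid-like and macrophage-like cells held no UMI of the 5 genes in any library that had such cells. At E11.5 this rested on 20 and 11 cells, and at E12.5 on 3 and 5. Cells with at least 3 erythroid markers that also met the minimum of another group did hold some. With these included, 6 of 31 cells at E11.5 held 28 UMIs, and 2 of 8 cells at E12.5 held 25.

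The cells that met no minimum had the highest level at E11.5, 601 CPM (578.5 to 624.2) in 650 cells, beside 222.8 in 495 cells at E12.5. They were shallower, with a median of 6532 UMIs at E11.5, and the part of depth in their level was not tested. Of the 108 cells with 10 or more UMIs of 1 member at E11.5, described below, 62 were among them, beside 29 Sertoli-like and 10 interstitial-like cells. At D6 the level was 79.5 (51.9 to 116.5) in 46 Sertoli-like cells, 54.8 (34.4 to 83.0) in 58 coelomic epithelium-like cells, 36.0 in 1529 cells with no group, and 18.0 (13.7 to 23.3) in 576 interstitial-like cells. The intervals of Sertoli-like and coelomic epithelium-like cells overlapped. The minimum numbers of markers were set after the data were seen, and many cells lay near them. The cells at the Sertoli minimum or 1 below it numbered 161 in E11.5 gonads, 27 in E12.5 gonads, and 36 in D6 cells, and those at the interstitial minimum or 1 below it 759, 1051, and 1173. These groups are therefore ranges of marker numbers.

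**Figure D3:**
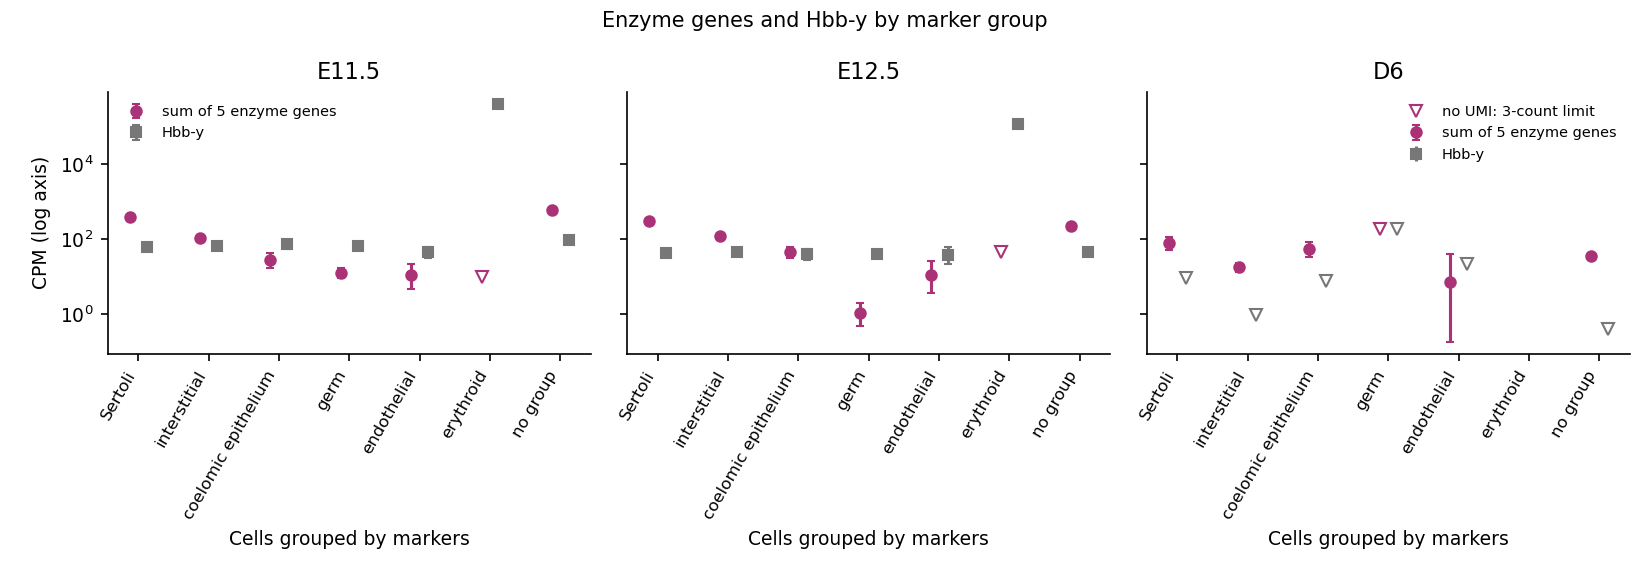
CPM (log axis) of the summed enzyme genes (circles) and of Hbb-y (squares) in cells grouped by markers at E11.5, E12.5, and D6, with exact 95% Poisson intervals. Open triangles are the limit of 3 counts where no UMI was found. Over germ-like, endothelial-like, Sertoli-like, interstitial-like, and coelomic epithelium-like cells, Hbb-y ranges from 45.4 to 72.9 at E11.5 and the enzyme genes from 11.01 to 387, and in cells with no group they reach 97.6 and 601.

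Cells with a UMI of Sox9 or Amh were then compared with cells that had no UMI of Sox9, Amh, or Epcam, called the rest. The summed level of the 5 genes was 3.11 and 3.24 CPM in E10.5 gonads, 370.2 and 169.5 in E11.5 gonads, 243.2 and 119.1 in E12.5 gonads, and 44.0 and 30.2 in D6 cells, in Sox9- or Amh-positive cells and the rest, respectively. The ratio was 0.960 (0.574 to 1.55) in E10.5 gonads, 2.18 (2.07 to 2.31) in E11.5 gonads, 2.04 (1.92 to 2.17) in E12.5 gonads, and 1.46 (1.13 to 1.86) in D6 cells. At E10.5 the interval included 1. No cell of that library met the Sertoli minimum, Amh gave 6 UMIs, and 786 of the 790 positive cells held Sox9. The class at E10.5 is thus not a Sertoli class. In the other libraries the class is wider than the Sertoli-like group. It held 786 cells beside 351 Sertoli-like ones at E11.5, 994 beside 557 at E12.5, and 321 beside 46 at D6. Sox9 was found in 292 cells at D6 and Amh in 82. With at least 2 UMIs required for Sox9 or Amh and for Epcam, the ratio at D6 was 2.76.

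The share of cells with any of the 5 genes was also compared after each cell was thinned at random to 2000 UMIs. It was 1.01% of Sox9- or Amh-positive cells and 0.641% of the rest at E10.5, 29.4% and 14.6% in E11.5 gonads, 26.6% and 14.1% in E12.5 gonads, and 5.00% and 3.38% in D6 cells. The intervals overlapped at E10.5 and D6. Before thinning these shares were 2.53% and 2.28%, 56.7% and 31.1%, 59.3% and 39.2%, and 10.3% and 7.07%. Thinning left out 6 cells of the rest at E10.5, 40 of the Sox9- or Amh-positive cells and 161 of the rest at E11.5, none at E12.5, and 1 and 15 cells at D6.

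Ctrb1 showed the largest difference between these cells at E12.5. There it gave 554 UMIs in Sox9- or Amh-positive cells and 11 in the rest, a ratio of 56.8 (31.5 to 114.5), and it was found in 14.7% and 0.473% of cells. At E11.5 the ratio was 4.77 (3.56 to 6.47), and it was 3.25 without the 1 cell that held 80 UMIs, whereas the ratio at E12.5 was 53.5 without the cell that held 33. Without all cells that held 10 or more UMIs of Ctrb1, the ratio was 2.58 at E11.5 and 35.6 at E12.5. Thus 554 of all 569 UMIs of Ctrb1 at E12.5 lay in Sox9- or Amh-positive cells, and 251 of 310 at E11.5.

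Pnliprp1 and Pnliprp2 were also higher in Sox9- or Amh-positive cells. For Pnliprp2 the ratio was 3.00 (2.65 to 3.41) in E11.5 gonads, 5.01 (4.22 to 5.98) in E12.5 gonads, and 3.12 (2.13 to 4.52) in D6 cells. For Pnliprp1 it was 2.31 (1.87 to 2.87), 4.14 (2.92 to 5.97), and 2.57 (0.877 to 6.80). The interval at D6 included 1, and the ratio there was 1.48 without the cell with the most UMIs.

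Cpa1 and Pnlip did not keep 1 direction. For Cpa1 the ratio was 2.04 (1.88 to 2.22) in E11.5 gonads, 1.32 (1.21 to 1.44) in E12.5 gonads, and 0.376 (0.168 to 0.737) in D6 cells. The share of D6 cells with Cpa1 was 1.87% (0.689 to 4.02) in Sox9- or Amh-positive cells and 2.32% (1.70 to 3.10) in the rest, and the intervals overlapped. The ratio at D6 therefore rested on UMIs in few cells, and it was 0.577 (0.255 to 1.15) without the 3 cells that held 10 or more UMIs of Cpa1. For Pnlip the ratio was 1.4996 (1.33 to 1.70) in E11.5 gonads, 0.834 (0.709 to 0.980) in E12.5 gonads, and 1.11 (0.604 to 1.93) in D6 cells, and in E12.5 gonads it was 0.866 (0.736 to 1.02) without the cell that held 14 UMIs.

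**Figure D4:**
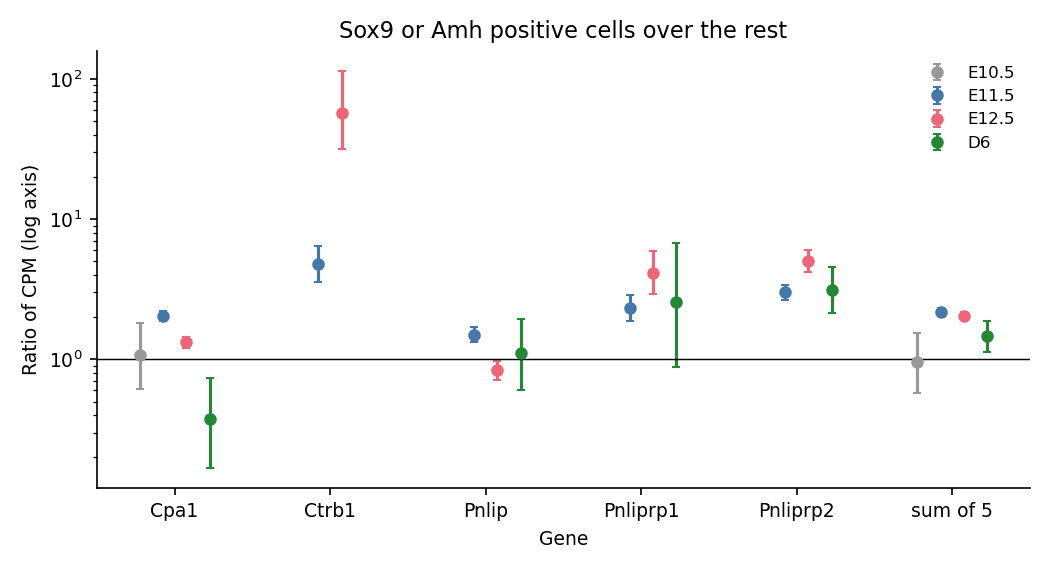
Ratio of CPM (log axis) between Sox9- or Amh-positive cells and the rest for each enzyme gene and for the sum of the 5 in each library. Bars are exact 95% intervals for counting error, the line marks a ratio of 1, and genes with fewer than 20 UMIs in the 2 classes are not drawn. Ctrb1 at E12.5 has the highest ratio, 56.8, and Cpa1 at D6 the lowest, 0.376.

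Against all genes, the number of members that were at least 2-fold higher in Sox9- or Amh-positive cells was 0 of 1 with at least 20 UMIs at E10.5, 4 of 5 at E11.5, 3 of 5 at E12.5, and 2 of 4 at D6. The share of all tested genes past this limit was 3.03% of 13260 at E10.5, 9.9% of 13255 at E11.5, 11.2% of 13723 at E12.5, and 4.08% of 12665 at D6. The median ratio was 2.31 over the members and 0.976 over all genes at E11.5, and 4.14 and 0.971 at E12.5. The members were picked from clusters of these same cells, so that these counts are not independent of the choice.

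Cells with Epcam and neither Sox9 nor Amh held few UMIs of the 5 genes in the gonads. Their level was 33.4 CPM (27.8 to 39.9) in 236 cells at E11.5 and 12.6 (10.4 to 15.2) in 501 cells at E12.5, or 0.197 and 0.106 of that in the rest. Epcam also marks germ cells, and the overlap of this class with the germ-like cells was not counted. At E12.5 its median depth was 18165 UMIs, beside 18581 in germ-like cells, whose level was 1.07 CPM. Cells with Epcam together with Sox9 or Amh, as found in ductal and progenitor cells of the pancreas, gave 269.9 (238.8 to 303.9) in 72 cells and 172.2 (149.4 to 197.5) in 83 cells. These values lie below those of Sox9- or Amh-positive cells without Epcam, 381.4 and 251.2.

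At E10.5 the order of these classes was different, with the higher values in cells with Epcam. The level was 8.51 (3.12 to 18.5) in 78 cells with Epcam and Sox9 or Amh, 7.72 (4.32 to 12.7) in 234 cells with Epcam alone, and 3.24 (2.55 to 4.06) in the rest. These rested on 6, 15, and 75 UMIs, and the first interval overlapped both others. In cells with Epcam alone, 7 of the 15 UMIs lay in 1 cell, without which the level was 4.13 (1.78 to 8.14) and overlapped that of the rest. The cell with the most UMIs of Cpa1 in this library, 6, held 6 UMIs of Epcam and at least 1 UMI of Ptf1a. It held none of the pancreatic factor Pdx1, of Nr5a2, or of Cdh1. It also held none of Sox9, Amh, Nr5a1, Wt1, or Gata4. Ptf1a was found in 1 of the 3746 cells without a member. The 2 cells with UMIs of 2 members at E10.5 were both Epcam-positive without Sox9 or Amh.

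The make-up of the enzyme UMIs differed between classes of cells within a library. At E12.5 Ctrb1 made up 19.3% (17.9 to 20.8) of the member UMIs in Sox9- or Amh-positive cells and 0.693% (0.347 to 1.24) in the rest, whereas Cpa1 made up 41.2% (39.4 to 43.0) and 63.8% (61.4 to 66.2). Pnlip made up 9.26% and 22.7%, and Pnliprp2 24.9% and 10.1%.

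The differences were smaller at E11.5. Cpa1 made up 43.7% (42.1 to 45.3) and 46.9% (44.6 to 49.2), Ctrb1 6.73% and 3.08%, Pnlip 17.0% and 24.7%, and Pnliprp2 25.2% and 18.3%. At D6 Pnliprp2 made up 57.1% (45.9 to 67.9) of 84 UMIs in Sox9- or Amh-positive cells and 26.7% (21.7 to 32.1) of 296 UMIs in the rest, and Cpa1 10.7% (5.02 to 19.4) and 41.6% (35.9 to 47.4). In both the E12.5 and D6 libraries the intervals of Cpa1 and of Pnliprp2 did not overlap between the classes. These intervals take each UMI by itself and are too narrow for UMIs clumped in cells. At D6 these shares rest on few cells, since 3 cells of the rest held 10 or more UMIs of Cpa1 and 1 Sox9- or Amh-positive cell held 15 of the 48 UMIs of Pnliprp2.

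**Figure D5:**
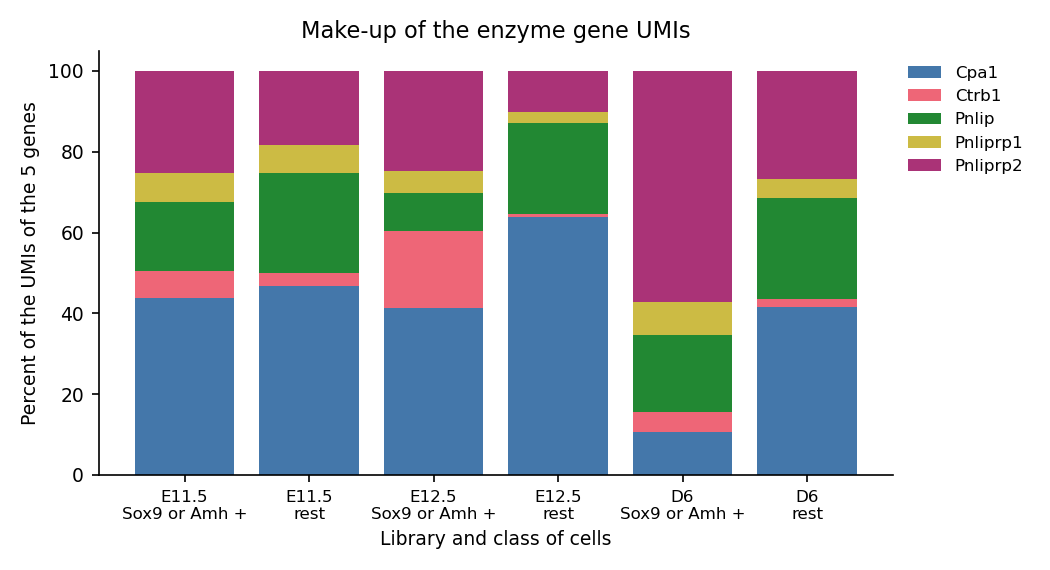
Share of each enzyme gene in the summed UMIs of the 5 genes (percent), in Sox9- or Amh-positive cells and the rest at E11.5, E12.5, and D6. Each bar adds to all UMIs of that class. The share of Ctrb1 is 19.3% in Sox9- or Amh-positive cells at E12.5 and 0.693% in the rest.

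From E11.5 on and at D6, the genes were found together in more cells than their single shares give and in fewer than depth gives. At E10.5 both numbers were below the 2 cells found. UMIs of 2 or more members were found in 2 cells in E10.5 gonads, 326 (15.5%) in E11.5 gonads, 332 (12.0%) in E12.5 gonads, and 21 (0.919%) in D6 cells. If the genes were detected independently, their shares would give 0.492, 242.8, 266.6, and 5.85 cells, or ratios of 1.34 in E11.5 gonads, 1.25 in E12.5 gonads, and 3.59 in D6 cells, and if all UMIs were spread by depth there would be 0.757, 1207, 1025, and 24.0 cells. Within Sox9- or Amh-positive cells the numbers were 194 observed and 184.7 from the shares at E11.5, and 233 and 220.8 at E12.5. These are ratios of 1.05 and 1.06. All 5 genes were detected in 5 cells at E11.5 and in 1 cell at E12.5. Because the genes were chosen as leading genes of small clusters of these cells, being found together is partly built into the choice. Each gene alone also lay in fewer cells than depth gives at E11.5, E12.5, and D6, which partly sets the comparison with depth.

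The pairs differed, and the neighboring lipase genes were often found together. Over all cells at E11.5, Pnlip and Pnliprp1 shared 103 cells where the product of their shares gave 31.1, Pnliprp1 and Pnliprp2 shared 67 where it gave 21.1, and Pnlip and Pnliprp2 shared 147 where it gave 57.3. These 3 ratios, 3.32, 3.18, and 2.57, were the highest of the 10 pairs at E11.5, with Cpa1 and Ctrb1, on different chromosomes, close behind at 2.54. With the product taken within 10 bins of depth, the 3 lipase ratios were 2.94, 2.98, and 2.37. Cpa1 and Ctrb1, at 2.54, then lay above Pnlip and Pnliprp2. At E12.5 the highest ratios were those of Ctrb1 with Pnliprp1 (3.06) and with Pnliprp2 (3.06), genes on different chromosomes.

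Within Sox9- or Amh-positive cells alone, Pnlip and Pnliprp1 shared 60 cells at E11.5, where the product gave 24.7, and 35 at E12.5, where it gave 17.5. In the same cells Cpa1 and Pnlip shared 77 and 45 cells, where the product gave 56.9 and 47.8. Ctrb1 and Pnliprp2 shared 4 cells at E11.5, where the product gave 9.03, and 53 at E12.5, where it gave 30.4. Thus this pair was below the product of its shares at E11.5 and above it at E12.5. At D6 every pair shared 9 cells or fewer.

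The cells with 10 or more UMIs of 1 member were mostly led by a single gene. They numbered 108 in E11.5 gonads, 81 in E12.5 gonads, and 6 in D6 cells, and held 59.9%, 38.6%, and 20.5% of the member UMIs of their library. In the median such cell the leading member made up 79.6% of the member UMIs in E11.5 gonads, 95.2% in E12.5 gonads, and 100% in D6 cells. Cpa1 led in 60, 53, and 3 of them, Pnliprp2 in 30, 15, and 3, Ctrb1 in 5, 12, and 0, Pnlip in 11, 1, and 0, and Pnliprp1 in 2, 0, and 0. A second member reached 10 or more UMIs in 22 of the 108, 3 of the 81, and none of the 6. Because the choice asks for 10 UMIs of 1 member, a lead of 1 gene is partly built into it. Of the 2101 cells in E11.5 gonads, 67 held 10 or more UMIs of Cpa1 and 39 of Pnliprp2. The numbers were 19 for Pnlip, 6 for Ctrb1, and 4 for Pnliprp1. How many cells with 2 such members these shares would give was not calculated. The counts therefore do not show that high levels of the members exclude each other.

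Most of these cells in the gonads held UMIs of Wt1 and of Gata4. At E11.5, 92.6% of the 108 cells held a UMI of Wt1 and 86.1% a UMI of Gata4, both transcription factors of the gonadal primordium, beside 58.6% and 30.5% of cells without a member. At E12.5 the shares were 61.7% and 79.0% of the 81 cells, beside 46.1% and 37.8%. Of the interstitial markers, Tcf21 was found in 23.1% and 29.6% of these cells at E11.5 and E12.5, beside 47.8% and 46.2%. Pdgfra was found in 25.9% and 37.0%, beside 27.1% and 36.4%. None of the 108, 81, or 6 cells held a UMI of the pancreatic factors Pdx1 or Ptf1a or of Nr5a2, which allows up to 3.36%, 4.45%, and 45.9% of cells, the exact upper limits. None of the 1280, 1638, and 2111 cells without a member held Pdx1 or Ptf1a either, so that these absences do not set the cells apart. Nr5a2 was found in 3.44%, 6.23%, and 0.379% of the cells without a member. Epcam was found in 4.63% and 6.17% of the cells at E11.5 and E12.5, beside 17.8% and 31.1% of cells without a member. The cells without a member include germ-like cells, and 17.4% and 29.9% of them held a UMI of the germ cell marker Dppa5a.

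The cells with the most UMIs of a gene give examples. At E11.5 the cell with 80 UMIs of Ctrb1 held 10713 UMIs in all, of which 2 were of Amh, 7 of Nr5a1, and 5 of Wt1, and it held 3 UMIs of the other members. The cell with 75 UMIs of Cpa1 held 3 of Sox9 and 6 of Wt1, together with 25 UMIs of the other members. At D6 the cell with 22 UMIs of Cpa1 held 5 of Nr5a1, 21 of Star, and 19 of Cyp11a1, the genes for cholesterol transport and the first step of steroid synthesis. Its total was 4899 UMIs, none of them of Sox9, Amh, or Epcam.

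Nr5a1 was compared after the data were seen. Nr5a1-positive cells had 4.84-fold (2.34 to 9.03) the summed enzyme level of Nr5a1-negative cells at E10.5, 2.95-fold (2.79 to 3.12) at E11.5, 3.23-fold (3.05 to 3.43) at E12.5, and 4.31-fold (3.46 to 5.41) at D6. The levels were 15.5 and 3.21 CPM in E10.5 gonads, 381.8 and 129.4 in E11.5 gonads, 254.4 and 78.7 in E12.5 gonads, and 64.7 and 15.0 in D6 cells. Without germ-like, endothelial-like, erythroid-like, and macrophage-like cells the ratios were 4.57, 2.33, 2.07, and 4.32. In each of the 4 libraries the summed level was thus higher in Nr5a1-positive cells. The ratio at E10.5 rested on 11 member UMIs, 8 of them of Cpa1, in 72 Nr5a1-positive cells. All 11 UMIs of Pnliprp1 in that library lay in Nr5a1-negative cells.

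Among single genes the ratio to Nr5a1-negative cells at E12.5 was 5.54 for Ctrb1, 5.32 for Pnliprp2, 3.11 for Pnliprp1, 2.79 for Cpa1, and 1.89 for Pnlip. Without the germ-like and other groups named above, these ratios were 3.58, 3.41, 1.97, 1.78, and 1.20. Within Sox9- or Amh-positive cells the ratio of Pnlip was 1.08 (0.843 to 1.40), and in the rest all 11 UMIs of Ctrb1 lay in Nr5a1-negative cells. At D6, over all cells, the ratio was 4.99 for Cpa1, 4.63 for Pnliprp1, 3.98 for Pnliprp2, and 3.37 for Pnlip. All 10 UMIs of Ctrb1 lay in 4 Nr5a1-positive cells, 1 of which held 6. Nr5a1-positive cells were deeper in some libraries. Their median was 13157 UMIs beside 10914 at E11.5 and 5834.5 beside 4232 at D6. At E12.5 it was 10947 beside 10941, and 10924 beside 9442 without the germ-like and other groups named above. The part of depth in these ratios was not tested.

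Cells with steroidogenic genes had the highest levels of the groups described at E11.5 and E12.5. Of the genes Star, Cyp11a1, Hsd3b1, and Cyp17a1, which were listed after the data were seen, 2 or more were detected in 45 cells in E11.5 gonads, 37 in E12.5 gonads, and 255 in D6 cells. The summed enzyme level was 1168 CPM (1086 to 1255) in such cells at E11.5, 497.7 with 1 of the genes, and 150.5 with none, and it was 662.9, 347.7, and 109.0 at E12.5. At E12.5 the step from 1 to 2 or more genes came from Cpa1, at 205.1 and 534.8, while Pnlip had 29.2 and 28.9, Pnliprp1 14.0 and 10.3, Pnliprp2 51.0 and 37.2, and Ctrb1 48.5 and 51.6. At E11.5 Ctrb1 had 48.7 (41.9 to 56.1) with 1 gene and 15.6 (7.49 to 28.7) with 2 or more. These rested on 188 and 10 UMIs of Ctrb1, and 1 cell held 80 of the 188. At least 1 member was found in 36 of the 45 cells and in 32 of the 37. The median depths of the 3 groups at E12.5 were 11510, 11263, and 10899 UMIs.

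At D6 the level was 62.1 (51.1 to 74.9) with 2 or more steroidogenic genes, 70.4 (58.2 to 84.3) with 1, and 18.8 (16.0 to 21.9) with none. The first 2 intervals overlapped and both lay above the last. At D6 Ctrb1 had all 10 UMIs in cells without any of the 4 genes. Those UMIs lay in 4 cells, 1 of which held 6, and 1737 of the 2285 cells had none of the genes.

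Some other genes listed for acinar cells were detected. Of 18 further acinar enzyme genes listed, 4 had 20 or more UMIs in E10.5 gonads, 6 in E11.5 gonads, 6 in E12.5 gonads, and 4 in D6 cells, and 8, 8, 6, and 10 had none. Over all 31053 genes, with Sox9 and Amh not counted, 13260, 13255, 13723, and 12665 had 20 or more UMIs in these libraries. The counts for the lists below stand beside the same background, and no list was tested against it.

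Ctrl, a chymotrypsin-like protease gene, gave 8.12 CPM in E11.5 gonads and 4.42 in E12.5 gonads, and Cela3b, an elastase gene, gave 5.20 and 7.37. Cela3b was found mainly in Sox9- or Amh-positive cells, with 235 UMIs beside 16 in the rest at E12.5 and 28 beside 14 at D6. Pla2g1b, a secreted phospholipase gene, reached 10.7 at D6, with 12.0 in Sox9- or Amh-positive cells and 10.1 in the rest. Thus Ctrl and Cela3b were below Cpa1 at E11.5 and E12.5.

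The list of acinar secretory proteins and transcription factors held 10 genes, and 2, 1, 1, and 1 of them had 20 or more UMIs at E10.5, E11.5, E12.5, and D6. At E12.5 its main gene was Nr5a2, with 116 UMIs, of which 113 lay in germ-like cells. Of 7 pancreatic progenitor genes, 5 had 20 or more UMIs at E10.5, none at E11.5 and E12.5, and 1, Prox1, at D6. Pdx1 gave 36 UMIs in 17 cells at E10.5 and none in the other libraries.

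Of 9 endocrine pancreas genes, 6 had 20 or more UMIs at E10.5 and 1 in each other library. Gcg, the glucagon gene, gave 1367 UMIs in 13 cells and Pyy gave 435 UMIs in 10 cells. At D6 Sst, the somatostatin gene, gave 145 UMIs in 8 cells. Of 12 gut and liver genes, 11 had 20 or more UMIs at E10.5 and 6 in each other library, with Krt18 the most abundant in the gonads. The E10.5 library thus held cells with pancreatic and gut genes.

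Among the relatives of the members, Lpl and Cpe had levels near that of Cpa1 but were found in more cells. Lpl, lipoprotein lipase, gave 99.98 CPM at E11.5, close to Cpa1, but no cell held more than 18 UMIs and the level was 101.9 in Sox9- or Amh-positive cells and 116.0 in the rest. Lpl was found in 1013 cells and Cpa1 in 385. Cpe, a carboxypeptidase of peptide hormone processing, gave 120.2 CPM in 1052 cells at E11.5, with 161.9 in Sox9- or Amh-positive cells and 101.7 in the rest. Of the 14 relatives listed, among them Ctrl, 8 to 10 had 20 or more UMIs in each library.

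Cells with UMIs of 2 or more members were compared with cells without any. At E11.5 the highest ratios to cells without a member were those of 2210407C18Rik (55.7), Ccdc182 (28.8), Sphkap (19.9), Fst (18.8), and Serpina1b (18.4), followed by Sprr2d, Myl1, Adam8, Wfdc10, and Irx3. For 2210407C18Rik, 92 of the 326 cells held a UMI, at a level of 115.7 CPM beside 2.08. Ccdc182, Sphkap, Fst, and Serpina1b were in 22, 38, 15, and 11 of the 326 cells. Their ratios rest on 4, 9, 8, and 4 UMIs in the 1280 cells without a member. Fst encodes follistatin, an inhibitor of activin.

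At E12.5 the first 4 genes, Ppbp, Pf4, Gp9, and Rgs18, are platelet lineage genes. All UMIs of Ppbp, Gp9, and Rgs18 in these cells lay in 1 cell each, and 894 of 895 UMIs of Pf4 lay in 1 cell. The next genes were Cyp17a1 (18.6), found in 11 of the 332 cells, Rab27b, Plek, Tgm3 (15.2), Adam8 (14.1), and Hsd3b1 (13.3). All 32 UMIs of Plek and 25 of 28 of Rab27b also lay in 1 cell each. Cyp17a1 and Hsd3b1 encode steroidogenic enzymes. Thus Adam8 was on the lists of both E11.5 and E12.5.

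At D6, where 21 cells held 2 or more members, Rep15, Socs2, Kctd14, Lgals7, Itga6, Ifitm1, Rgs2, Pank1, Npr1, and Stim1 led with ratios of 4.25 to 6.93. Kctd14 was found in 17 and Lgals7 in 18 of the 21 cells. At E10.5 the 2 cells gave Nepn (109), held by 1 cell, followed by Pebp1, Prdx1, Serbp1, Rpl38, Malat1, Prdx2, Fau, Eef2, and Rps28 at ratios under 2.

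Across the 4 libraries and 3 classes of cells, 12 points in all, the genes whose level on the log2(CPM + 1) scale was most like the summed members were Serpinb6b (r = 0.978), Rnaset2a (r = 0.965), Tulp2 (r = 0.961), Prkcb (r = 0.961), and Cd200 (r = 0.954), of 9050 genes compared. Among the members, r ranged from 0.650 for Pnlip with Pnliprp1 to 0.909 for Pnlip with Pnliprp2. The points share libraries and depth, so that these values are descriptions.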

How the data were processed

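Single-cell RNA sequencing of 4 XY mouse libraries, 1 for each condition, was analyzed. The authors deposited UMI counts per gene and cell barcode, without normalization. The submitters' processing notes name Cell Ranger 3.0.2 and the build mm10, whereas the file headers name Cell Ranger 6.0.0. The limits of the study's methods were applied. The lower limit on genes was 1000 (E10.5), 500 (E11.5), 2000 (E12.5), or 1000 (D6), the upper one 4000, 5000, 5000, or 4000, and the limit on mitochondrial reads 10%, 20%, 8%, or 12%. This left 32508523, 24625441, 34173977, and 11906360 UMIs. Doublets were left in.

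The 5 genes, the gene lists, and the classes of cells were chosen with earlier results of these data known. The minimum numbers of markers (3 of 5 for germ-like, endothelial-like, erythroid-like, and macrophage-like cells, 5 of 9 for Sertoli-like cells, 3 of 4 for interstitial-like and coelomic epithelium-like cells), the limit of 10 UMIs, the comparison by Nr5a1, and the steroidogenic list were set after the data were seen. Genes named are the members, the genes of the lists, Sox9, Amh, Epcam, and Hbb-y, the 10 genes with the highest ratio between cells with 2 or more members and cells with none (at least 20 UMIs), and the 5 genes most like the summed members (at least 20 CPM in a class). Wt1, Gata4, and the 4 steroidogenic genes were chosen after their values were seen.

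UMI sums carry exact Poisson intervals, shares carry Clopper-Pearson intervals, and ratios carry exact conditional binomial intervals, all at 95%. A count of 0 was given a limit of 3 counts. Calculations of spread used Poisson means proportional to the UMIs of each cell. The ratio and spread steps were checked on counts drawn with known answers. TMM factors, one of the alternatives, were from edgeR 4.0.16 in R 4.3.3, doublets from scanpy 1.11.5, and all else from scipy 1.17.1 in Python 3.11.15. Gene positions are from GENCODE vM21 on GRCm38, the assembly that mm10 names. One gene of the acinar enzyme list is not reported here.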

Additional observations from a re-analysis of the deposited data

Results flagged for a closer look

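Cpa1 differed in direction between libraries when Sox9- or Amh-positive cells were divided by the rest, with ratios of 2.04 in E11.5 gonads, 1.32 in E12.5 gonads, and 0.376 in D6 cells. Pnlip did so between E11.5 and E12.5, with ratios of 1.4996 and 0.834. The difference between libraries was not tested in either case, since each condition has 1 library. The value of Cpa1 at D6 rests on 9 UMIs in Sox9- or Amh-positive cells and 123 in the rest, and the interval of Pnlip at E12.5 includes 1 without the cell with most UMIs of the gene.

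Barcodes outside the limits of the study's methods, which enter no comparison above, also held UMIs of the 5 genes. The level was 4.29 CPM in 636 barcodes at E10.5, 177.5 in 348 at E11.5, 79.8 in 412 at E12.5, and 32.1 in 156 at D6. At E11.5 and E12.5 these levels lie below those of the retained cells, and at E10.5 and D6 the intervals overlap.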

How the results depend on the processing

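Each condition has 1 library, so that no replicate spread limits these values, and depth limits the shares of cells, above all at D6 with a median of 4607 UMIs. No paired analysis was possible because each group has 1 sample. Of 96 alternative values, 70 stayed within the interval of the main value or within 1.5 times a count, and 26 moved. The summed level at E11.5 and E12.5 was 218.3 and 123.5 CPM with all deposited barcodes, 257.9 and 177.7 without cells with 2 or more germ cell markers, and 254.8 and 149.2 after thinning to 2000 UMIs. Without cells with 10 or more UMIs of a member, an alternative chosen after seeing the data, it was 98.3 in E11.5 gonads, 84.6 in E12.5 gonads, and 25.9 in D6 cells, so that in E11.5 and E12.5 gonads the main level rests by over 1.5 times on these cells.

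The ratio of Sox9- or Amh-positive cells to the rest ranged over its 10 alternatives from 0.782 to 1.42 in E10.5 gonads, 1.92 to 2.73 in E11.5 gonads, 1.98 to 2.29 in E12.5 gonads, and 1.35 to 2.76 in D6 cells, and none reversed a ratio whose interval excluded 1. At E11.5 it was 1.92 with all barcodes, 2.73 with 2 UMIs required for Sox9 or Amh and Epcam, and 1.98 without cells with 10 or more UMIs of a member, at E12.5 it was 2.29 after thinning, and at D6 it was 2.76 with 2 UMIs required. Cells with 2 or more members fell from 2, 326, 332, and 21 to 0, 162, 105, and 1 with 2 UMIs per gene and to 0, 105, 48, and 1 after thinning. Removal of 132, 35, 27, and 46 Scrublet doublets (3.44%, 1.67%, 0.977%, and 2.01% of cells, at E10.5 and D6 the highest scores at the expected number) moved none of these counts by over 1.5 times. Without cells with 10 or more UMIs of a member, Ctrb1 made up 4.52% of the member UMIs of Sox9- or Amh-positive cells at E11.5 and 17.8% at E12.5. With no filter on low counts, the share of all genes at least 2-fold higher in Sox9- or Amh-positive cells was 7.01% at E10.5 and 9.05% at D6. The cause of these shifts was not tested beyond the construction of each alternative.

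Barcodes that occur in more than 1 library numbered 27 cells in E10.5 gonads, 19 in E11.5 gonads, 24 in E12.5 gonads, and 0 in D6 cells, and held 0, 37, 15, and 0 member UMIs. Leaving them out moved no level beyond its interval. Leaving out the cell with most member UMIs among Epcam-positive cells without Sox9 or Amh at E10.5 was chosen after seeing the data too, and lowered their level from 7.72 to 4.13 CPM.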
